A study of Arabidopsis thaliana with 4 samples.

Results

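The 56 genes described here encode the core cell-cycle machinery of *Arabidopsis thaliana*: the A-, B- and D-type cyclins, the A- and B-type cyclin-dependent kinases (CDKs) with the kinase WEE1 and the CKS docking proteins, the KRP and SIM/SMR inhibitors, the E2F, DP and RBR1 proteins, and the CDC20 and CCS52 activators of the anaphase-promoting complex. They were taken as a list of loci, and a probe stands for a member when the locus in its systematic name is on that list. All 56 have a probe among the 25665 loci on the array. All 56 were tested among 23259 loci, so none was lost to the filter on low values. Signal well above background on all 4 arrays was found for 55 of them. The exception is the D-type cyclin *CYCD7;1* (AT5G02110), which was well above background on none.

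Gene expression was measured on one-colour Agilent 44k arrays in 2 tissues that were separated by hand from *clv3-9* mutant plants. The plants were in the Columbia background, 9 weeks old and kept in short days of 8 h light and 16 h darkness. A meristem-enriched sample and young leaves were each represented by 2 biological replicates. Every sample carries the *clv3-9* allele, a point mutation in the coding region of *CLV3* that disrupts its function and enlarges the vegetative shoot apical meristem, and no wild-type sample was analysed here. The meristem samples are thus an enrichment from an enlarged mutant meristem, and the leaf samples are whole young leaves with all their cell types.

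Progress through the cell cycle depends on CDKs that are active only when bound to a cyclin. In plants, D-type cyclins with the A-type CDK act early in the cycle by inactivating the retinoblastoma protein RBR1, which otherwise holds E2F transcription factors in check. A-type cyclins act from S phase into mitosis, and B-type cyclins with the plant-specific B-type CDKs act at the entry into mitosis. KRP and SIM/SMR proteins inhibit CDKs, and the anaphase-promoting complex destroys cyclins. Shoot meristems are built of small dividing cells, whereas many leaf cells leave division and replicate their DNA without mitosis (endoreduplication), for which CCS52A proteins and SIM/SMR inhibitors are known.

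Values are normalized log2 signals: the log2 of the processed intensity, scaled so that the 75th percentile is the same on all arrays. Differences are meristem minus leaf on this log2 scale, given with the standard error (SE) of limma's fit. Adjusted p-values are from limma with Benjamini-Hochberg adjustment over all 23259 loci, and 0.05 is the highest adjusted p at which a gene passes the test. The share of probes well above background was 60.1% to 63.3% per array, over all loci r was 0.991 between the meristem replicates and 0.994 between the leaf replicates, and the replicate SD pooled over loci was 0.314. P-values rest on the spread between these 2 samples per tissue, which limma draws towards that of all loci (prior SD 0.158). For a single gene an exact permutation test of 2 against 2 arrays cannot go below a two-sided p of 0.333. The bulk tissues do not separate a larger number of cells of a type from more RNA per cell.

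Most core cell-cycle genes were higher in the meristem. Of the 56 members, 35 were higher in the meristem, 4 were lower and 17 did not pass the test. Across all loci 27.1% were higher and 21.6% were lower, against 62.5% and 7.14% of the members. The median difference of the members was 0.91, against 0.10 for all loci tested, and 47 members lay above the median of all loci. At the 4-fold threshold of the study (log2 difference 2 or more, either way), 4 members were higher, *CYCA2;1*, *CYCB2;2*, *CDKB1;1* and *KRP3*, where 6.55% of all loci were. At the same threshold 3 were lower, *KRP1*, *SMR1* and the dim D-type cyclin named above, where 6.41% of all loci were. That cyclin was well above background on no array. With only loci well above background, 2 members were at least 4 times lower. Without either leaf replicate in turn fewer members passed the test as higher, and so did fewer of all loci. Without leaf replicate 1 and 2, 46 and 48 members lay above the median of all loci. With normexp background correction the count of 35 fell to 5. This correction models the raw spot signal as background plus true signal and adds an offset of 50. Under it 2.35% of all loci were higher.

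**Figure D1:**
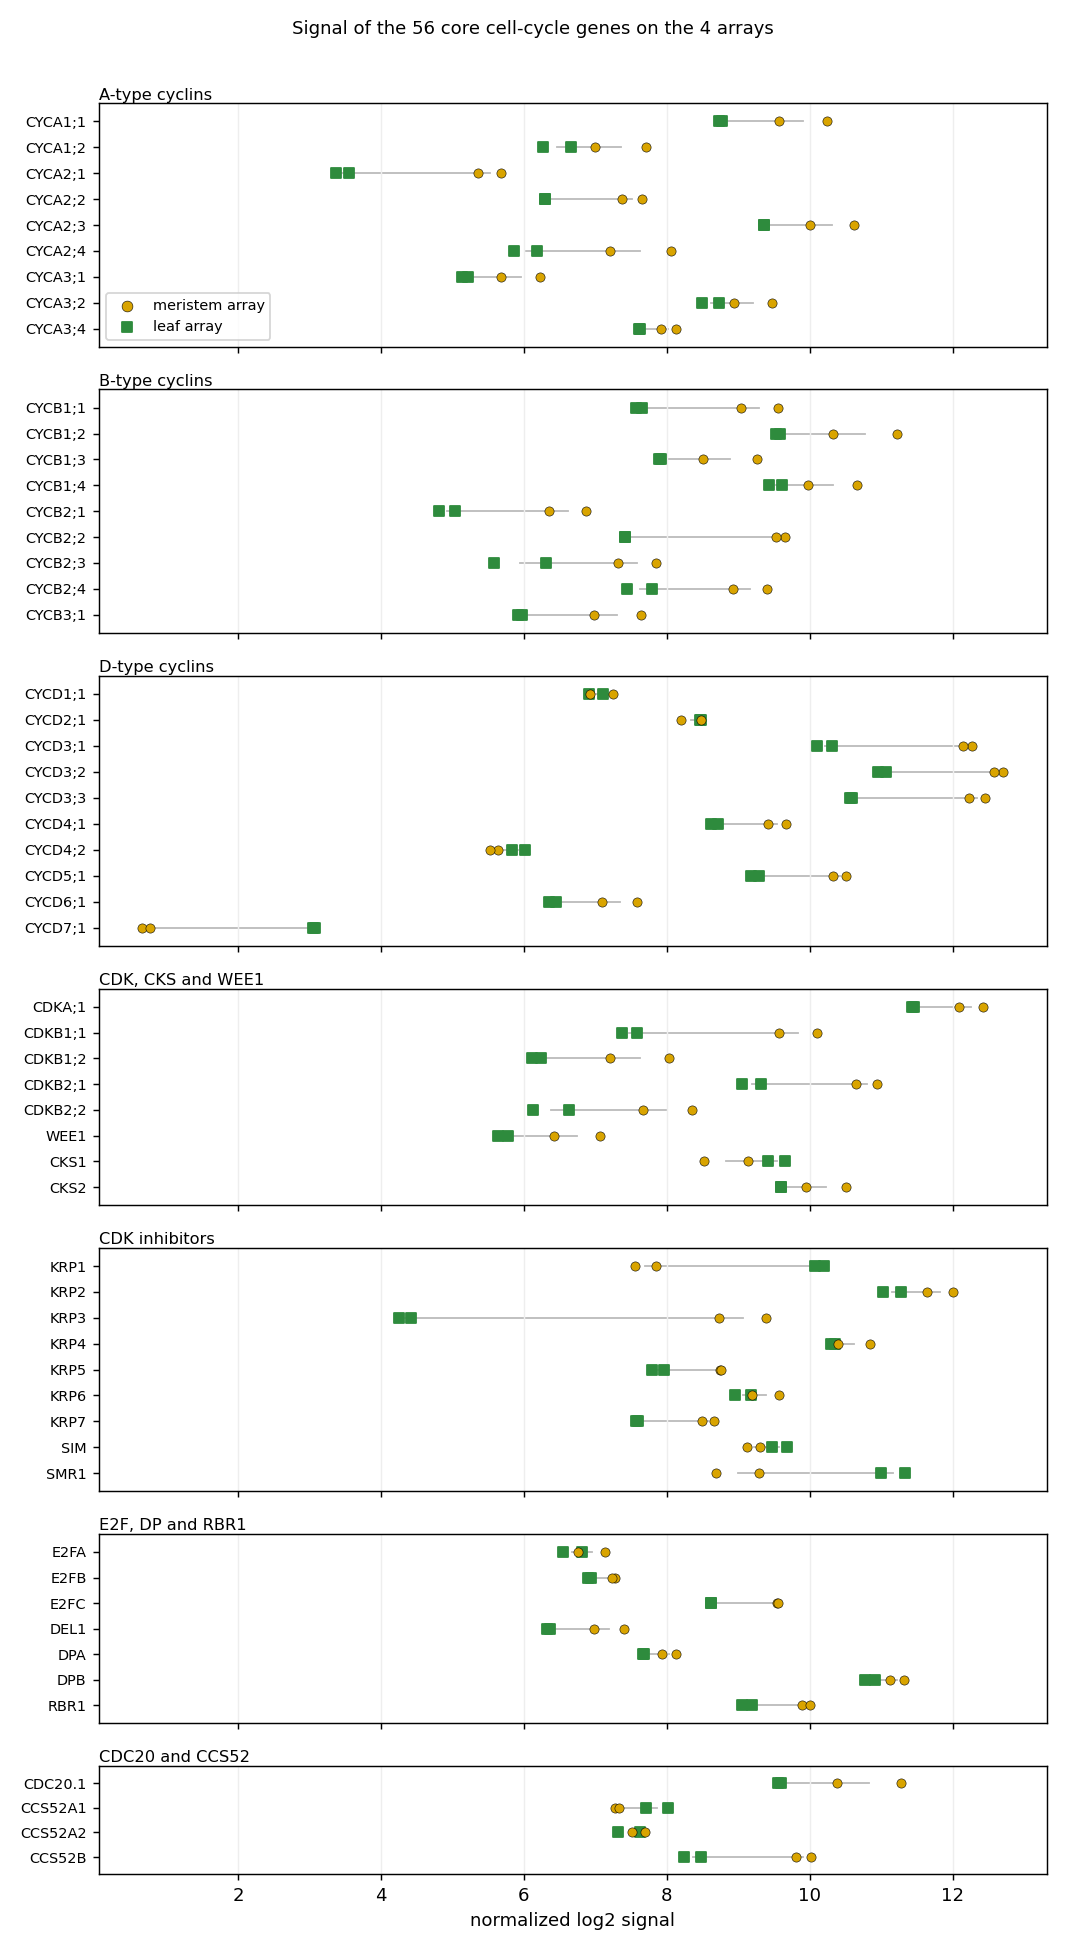
Normalized log2 signal (x axis) of each of the 56 members on the 2 meristem arrays (circles) and the 2 leaf arrays (squares), by class, with a grey line between the tissue means. The meristem arrays lie to the right for every A- and B-type cyclin, while *KRP1* and *SMR1* lie far to the left in the meristem and *KRP3* far to the right. Levels of different probes are not comparable with each other.

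The classes differed in how far they were shifted. B-type cyclins had the highest class median, 1.55, followed by the class of CDKs, CKS proteins and WEE1 with 1.24, A-type cyclins with 0.96 and D-type cyclins with 0.91. The CDC20 and CCS52 genes had a median of 0.69. The medians of the E2F, DP and RBR1 genes (0.38) and of the CDK inhibitors (0.31) were nearest to that of all loci. Relative to all loci the inhibitor median was 0.22, and it was 0.065 without meristem replicate 2 and 0.44 without meristem replicate 1. These are descriptions of a chosen list, and the order of the classes was not tested.

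**Figure D2:**
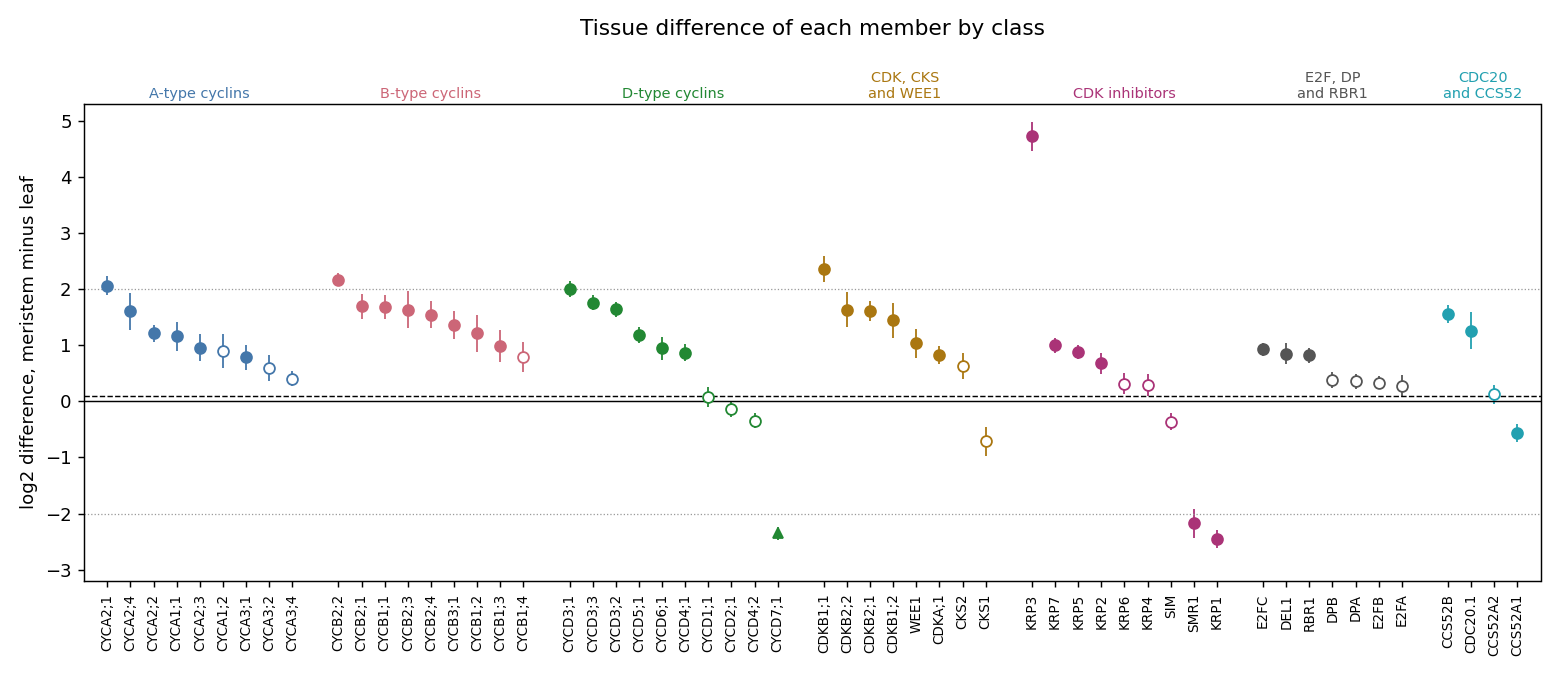
Log2 difference, meristem minus leaf, of each member with its SE (y axis), grouped by class. Filled symbols passed the test in limma (adjusted p at most 0.05), the triangle is the D-type cyclin that was dim on every array, the dashed line is the median of all loci tested (0.10) and dotted lines mark 4-fold. All A- and B-type cyclins lie above the dashed line, whereas CDK inhibitors spread from -2.44 for *KRP1* to 4.72 for *KRP3*.

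D-type cyclins, which start the cycle, were uneven. Of 10 genes, 6 were higher in the meristem, 1 was lower and 3 did not pass the test. Across all loci 27.1% were higher and 21.6% lower. All 3 *CYCD3* genes, known in *Arabidopsis* for the cytokinin response and for prolonging division in young organs, were among those higher. *CYCD3;1* (AT4G34160) is described in full here after its values were seen, since it lay just under the 4-fold threshold. The 2 meristem arrays gave 12.27 and 12.15, and the 2 leaf arrays gave 10.11 and 10.31. The tissues were well apart, and they differed by 2.00 (SE 0.14, adjusted p = 0.00124, limma), which is 3.996-fold. Its paralogs AT3G50070 and AT5G67260 differed by 1.76 (SE 0.14) and 1.64 (SE 0.13), or 3.38-fold and 3.11-fold, so the 3 paralogs shared their direction and nearly their size. All 3 calls were kept under each of the 14 alternative settings.

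Among the other D-type cyclins, *CYCD5;1* (AT4G37630) was higher by 1.18 (SE 0.14), *CYCD6;1* (AT4G03270), known for formative divisions in the root, by 0.95 (SE 0.21), and *CYCD4;1* (AT5G65420) by 0.87 (SE 0.15). The smallest difference of the class was that of *CYCD1;1* (AT1G70210). It had signals of 7.25 and 6.93 in the meristem and 6.91 and 7.11 in the leaf, and the arrays of the tissues overlapped (difference 0.08, SE 0.17, adjusted p = 0.729, limma), with a sign that turned to -0.22 under scaling to the median. *CYCD2;1* (AT2G22490) overlapped as well, with a difference of -0.13 that became 0.28 without scaling. *CYCD4;2* (AT5G10440) had a difference of -0.34 (adjusted p = 0.105, limma), which became 0.07 without scaling. It was called lower under quantile normalization (-0.63) and scaling to the median (-0.64). With normexp correction 3 of the 6 higher calls remained, those of the *CYCD3* genes.

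The D-type cyclin that was lower in the meristem, *CYCD7;1*, is known for the last division in the stomatal lineage. Its signals were 0.66 and 0.76 in the meristem and 3.05 and 3.08 in the leaf. None of the 4 values was well above background, so no fold is given although the difference of -2.35 passed the test (adjusted p = 0.000739, limma). With normexp correction it was -0.36 and did not pass. Of the markers of the stomatal lineage 4 of 5 were lower in the meristem, *MUTE*, *FAMA*, *SDD1* and *TMM*, where 21.6% of all loci were. *SPCH* had a difference of 0.52 that did not pass the test (adjusted p = 0.102, limma). The summed linear signal of all 5 came to 3388 and 2833 in the meristem against 7703 and 7368 in the leaf. *TMM* was the brightest of the 5 on every array. The part of stomatal cells in the value of *CYCD7;1* was not tested.

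All 9 differences of A-type cyclins were positive, and 6 of these genes (66.7%, against 27.1% of all loci) passed the test as higher in the meristem. The largest belonged to *CYCA2;1* (AT5G25380), a member of the group that acts with a B1-type CDK and restrains endoreduplication. It had signals of 5.68 and 5.36 in the meristem against 3.55 and 3.37 in the leaf. The difference was 2.06 (SE 0.17, adjusted p = 0.00173, limma), or 4.17-fold. These are dim signals, and the difference was 0.20 with normexp correction (adjusted p = 0.958, limma). The other *CYCA2* genes, AT1G80370, AT5G11300 and AT1G15570, were higher by 1.60 (SE 0.33), 1.22 (SE 0.15) and 0.96 (SE 0.24), that is 3.03-fold, 2.32-fold and 1.94-fold. The whole *CYCA2* group therefore passed the test.

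*CYCA1;1* (AT1G44110) was higher by 1.16 (SE 0.26). Its paralog *CYCA1;2* (AT1G77390), known for its role in meiosis, had a difference of 0.89 that did not pass the test (adjusted p = 0.0736, limma). The *CYCA3* genes, which are tied to S phase, showed the smallest differences of the class. *CYCA3;1* (AT5G43080) was higher by 0.78 (SE 0.22), close to the threshold (adjusted p = 0.0462, limma), and was at -0.00034 with normexp correction. *CYCA3;4* (AT1G47230) had 8.13 and 7.91 in the meristem against 7.61 and 7.63 in the leaf. The arrays did not overlap, yet the difference of 0.41 (SE 0.14) did not pass the test (adjusted p = 0.0723, limma). The difference of its paralog AT1G47210, 0.59 (SE 0.23), did not pass either. These genes are separated in the genome only by the related AT1G47220, and whether their probes bind transcripts of the neighbours was not tested. Of the 6 higher calls of A-type cyclins, 2 were left without leaf replicate 1, 3 without leaf replicate 2, 1 with the methods' t-test (Benjamini-Hochberg adjusted) and 0 with normexp correction.

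Among the B-type cyclins, the mitotic cyclins, all 9 differences were positive and 8 passed the test. That was 88.9%, the highest share of the 7 classes, against 27.1% of all loci. *CYCB2;2* (AT4G35620) showed the largest, with signals of 9.65 and 9.52 in the meristem and 7.42 and 7.42 in the leaf. The replicates of a tissue lay within 0.13 of each other, and the difference was 2.17 (SE 0.12, adjusted p = 0.000837, limma), or 4.49-fold. The other *CYCB2* genes were close to each other, with AT2G17620 at 1.69 (SE 0.23), AT1G20610 at 1.63 (SE 0.33) and AT1G76310 at 1.55 (SE 0.23). *CYCB1;1* (AT4G37490), whose promoter is widely used to mark cells in G2 and mitosis, was higher by 1.68 (SE 0.21, adjusted p = 0.00503, limma), or 3.21-fold. *CYCB3;1* (AT1G16330) was higher by 1.36 (SE 0.25).

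The other *CYCB1* genes differed less. *CYCB1;2* (AT5G06150) was higher by 1.21 (SE 0.33) and *CYCB1;3* (AT3G11520) by 0.98 (SE 0.29), the latter at the edge of the threshold (adjusted p = 0.0498, limma). Both calls were also lost with quantile normalization and with scaling to the median. *CYCB1;4* (AT2G26760) was the smallest, with 10.66 and 9.98 in the meristem and 9.44 and 9.62 in the leaf. Its meristem replicates were 0.68 apart, and the difference of 0.80 (SE 0.27) did not pass the test (adjusted p = 0.0704, limma). Of the 8 higher calls of B-type cyclins, 5 were left without leaf replicate 1, 1 with the methods' t-test (Benjamini-Hochberg adjusted) and 0 with normexp correction, where the largest difference of the class was 1.62 (adjusted p = 0.0552, limma).

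All 4 B-type CDKs, which are expressed from S phase to mitosis and drive mitotic entry, were higher in the meristem, where 27.1% of all loci were. *CDKB1;1* (AT3G54180) had 10.10 and 9.57 in the meristem against 7.58 and 7.37 in the leaf. The tissues differed by 2.36 (SE 0.23, adjusted p = 0.00252, limma), or 5.12-fold, the largest of any cyclin or CDK among the members that were above background. Its paralog AT2G38620 has 2 probes, which gave 1.44 and 1.53. The *CDKB2* genes, AT1G20930 and AT1G76540, were higher by 1.63 (SE 0.31) and 1.61 (SE 0.18), or 3.09-fold and 3.05-fold, and are known from *Arabidopsis* for the organization of the shoot meristem. *CDKA;1* (AT3G48750), the CDK that acts throughout the cycle, was higher by 0.82 (SE 0.16, adjusted p = 0.0175, limma), and the gap between it and the B-type CDKs was not tested.

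*WEE1* (AT1G02970), a kinase of the DNA replication and damage checkpoint, was higher by 1.03 (SE 0.26, adjusted p = 0.0321, limma). Its call was lost with normexp correction, quantile normalization, scaling to the median and replicate number as a block. The adjacent genes of the CKS proteins, which dock CDKs to their substrates, had differences of opposite sign. *CKS2* (AT2G27970) was at 10.51 and 9.95 in the meristem and at 9.61 and 9.60 in the leaf, and differed by 0.63 (SE 0.23, adjusted p = 0.0835, limma). *CKS1* (AT2G27960) had a difference of -0.72 (SE 0.25, adjusted p = 0.0813, limma). Neither passed the test, the difference between the genes was not tested, and the sign of *CKS1* turned to 0.05 when arrays were scaled by the probes of added spike-in RNA. *CKS1* was called lower under scaling to the median (-1.01) and without meristem replicate 1 (-1.02). Of the 6 higher calls in the class of CDKs, CKS proteins and WEE1, 3 were left without either leaf replicate in turn, 1, that of AT1G76540, with normexp correction, and 0 with the methods' t-test (Benjamini-Hochberg adjusted).

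The CDK inhibitors held both the largest positive and the largest negative differences of all members above background. Of the 7 *KRP* genes, which encode inhibitors of CDK complexes, 4 were higher, 1 was lower and 2 did not pass the test. These are shares of 57.1% higher and 14.3% lower, against 27.1% and 21.6% of all loci. *KRP3* (AT5G48820) stood at 8.73 and 9.39 in the meristem and at 4.26 and 4.43 in the leaf. It was 26.3-fold higher in the meristem (difference 4.72, SE 0.26, adjusted p = 0.000809, limma), and each of the 4 signals was well above background. The value shrank to 2.24 with normexp correction and no longer passed the test (adjusted p = 0.118, limma). Under the other 13 alternatives the call was kept.

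*KRP1* (AT2G23430) ran the other way, with signals of 7.55 and 7.85 in the meristem and 10.08 and 10.21 in the leaf. It was lower by 2.44 in the meristem (difference -2.44, SE 0.16, adjusted p = 0.00107, limma), or 5.44-fold, and this call was kept under all 14 alternatives, with -1.68 under scaling to the spike-in controls. *KRP7* (AT1G49620), *KRP5* (AT3G24810) and *KRP2* (AT3G50630) were higher by 0.99 (SE 0.13), 0.88 (SE 0.13) and 0.68 (SE 0.19). The call of *KRP2* was close to the threshold (adjusted p = 0.0439, limma). It was lost under scaling to the median, with replicate number as a block and with the methods' t-test (Benjamini-Hochberg adjusted). *KRP4* (AT2G32710) had the smallest difference, with 10.39 and 10.85 against 10.30 and 10.35 (difference 0.29, SE 0.20, adjusted p = 0.276, limma), and was at -0.0022 under scaling to the median. *KRP6* (AT3G19150) had a difference of 0.31 that did not pass the test. Its second probe, well above background on 2 arrays, gave 0.46.

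The SIM/SMR inhibitors are known for endoreduplication, *SIM* in trichomes and *SMR1* in the giant cells of the sepal. *SMR1* (AT3G10525) had 9.30 and 8.68 in the meristem and 11.33 and 11.00 in the leaf. It was 4.52-fold lower in the meristem (difference -2.18, SE 0.26, adjusted p = 0.00451, limma), and remained lower under each scaling, with -1.41 under scaling to the spike-in controls. *SIM* (AT5G04470) had a difference of -0.36 that did not pass the test (adjusted p = 0.114, limma) and changed sign without scaling, to 0.06, whereas it was called lower under scaling to the median (-0.66). The lower calls of *KRP1* and *SMR1* were the only 2 among the inhibitors that were kept with normexp correction, where none of the 4 higher ones was. Without leaf replicate 2 the higher calls were 2.

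Of the E2F, DP and RBR1 genes, 3 of 7 passed the test, all higher in the meristem (42.9%, against 27.1% of all loci). *E2FC* (AT1G47870), described in *Arabidopsis* as a repressor of division, showed the largest difference. It had 9.54 and 9.55 in the meristem and 8.62 and 8.62 in the leaf. The replicates nearly coincided, and the tissues differed by 0.93 (SE 0.12, adjusted p = 0.00477, limma). *DEL1* (AT3G48160), an atypical E2F that represses *CCS52A2*, was higher by 0.85 (SE 0.18), and *RBR1* (AT3G12280) by 0.82 (SE 0.13, adjusted p = 0.00938, limma). The call of *DEL1* was lost with quantile normalization, scaling to the median and the methods' t-test (Benjamini-Hochberg adjusted).

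None of the activators of S-phase genes and their DP partners passed the test. *E2FA* (AT2G36010) was at 7.14 and 6.76 in the meristem and 6.55 and 6.81 in the leaf. The arrays of the tissues overlapped (difference 0.27, SE 0.19, adjusted p = 0.306, limma), and under scaling to the median it was at -0.02. *E2FB* (AT5G22220), *DPA* (AT5G02470) and *DPB* (AT5G03415) had differences of 0.33, 0.36 and 0.38 (adjusted p = 0.0792, 0.0897 and 0.0904, limma). Of the 3 higher calls of this class, 0 were left with normexp correction, and fewer were left without leaf replicate 1. All 7 genes were called higher when arrays were scaled by the spike-in probes, but so were 65.6% of all loci. The class median relative to all loci was 0.29 with and without that scaling.

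Of the 4 activators of the anaphase-promoting complex, 2 were higher in the meristem, 1 was lower and 1 did not pass the test. The share of lower genes, 25%, was near the 21.6% of all loci, and 27.1% of all loci were higher. *CCS52B* (AT5G13840), which is expressed at mitosis, had 10.01 and 9.81 in the meristem and 8.24 and 8.48 in the leaf. Its difference of 1.55 (SE 0.16, adjusted p = 0.00280, limma), or 2.93-fold, was kept as a call under all 14 alternatives. *CDC20.1* (AT4G33270), the mitotic activator, was higher by 1.25 (SE 0.33, adjusted p = 0.0379, limma). This call was lost with normexp correction, quantile normalization, scaling to the median and the methods' t-test (Benjamini-Hochberg adjusted). Without either leaf replicate in turn it was lost as well. The gene lies next to its close paralog *CDC20.2* (AT4G33260), which was higher by 1.73 (SE 0.33). Whether the probe of either binds transcripts of the other was not tested.

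The CCS52A pair promotes endoreduplication. *CCS52A1* (AT4G22910) was lower in the meristem by a small margin (difference -0.56, SE 0.16, adjusted p = 0.0454, limma), a call that was lost without any of the 4 arrays in turn and a sign that turned to 0.21 under scaling to the spike-in controls. *CCS52A2* (AT4G11920) had 7.51 and 7.69 in the meristem and 7.31 and 7.63 in the leaf. The tissues overlapped, with a difference of 0.13 (SE 0.17, adjusted p = 0.560, limma) that turned to -0.17 under scaling to the median.

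The meristem replicates were unequal in many cell-cycle genes. All 22 A-type cyclins, B-type cyclins and B-type CDKs were higher on meristem array 1 than on array 2, by a median of 0.54, whereas 47.9% of all loci were, with a median of -0.02. The 7 *KRP* genes were all lower on array 1, with a median of -0.36. The 6 E2F-target S-phase genes listed further on were higher on array 1 in 5 cases, with a median of 0.65, and 12 of 13 genes of mitosis and cytokinesis were, with 0.64. Between the leaf arrays, 9 of the 22 were higher on array 1. Without meristem replicate 1 the higher calls were 5 of 9 for A-type cyclins and 7 of 9 for B-type cyclins, and without meristem replicate 2 they were 8 of 9 and 9 of 9. Markers of other cell types were also higher on meristem array 1: 5 of 5 leaf markers (median 0.45), 5 of 5 stomatal markers (0.26), 4 of 4 of leaf primordia (0.39) and 3 of 4 of trichomes (0.77). Meristem markers were higher there in 1 of 4 (median -0.23), vascular markers in 2 of 5 (-0.50) and floral markers in 2 of 4 (-0.17). The part of tissue composition in this difference between replicates was not tested.

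**Figure D3:**
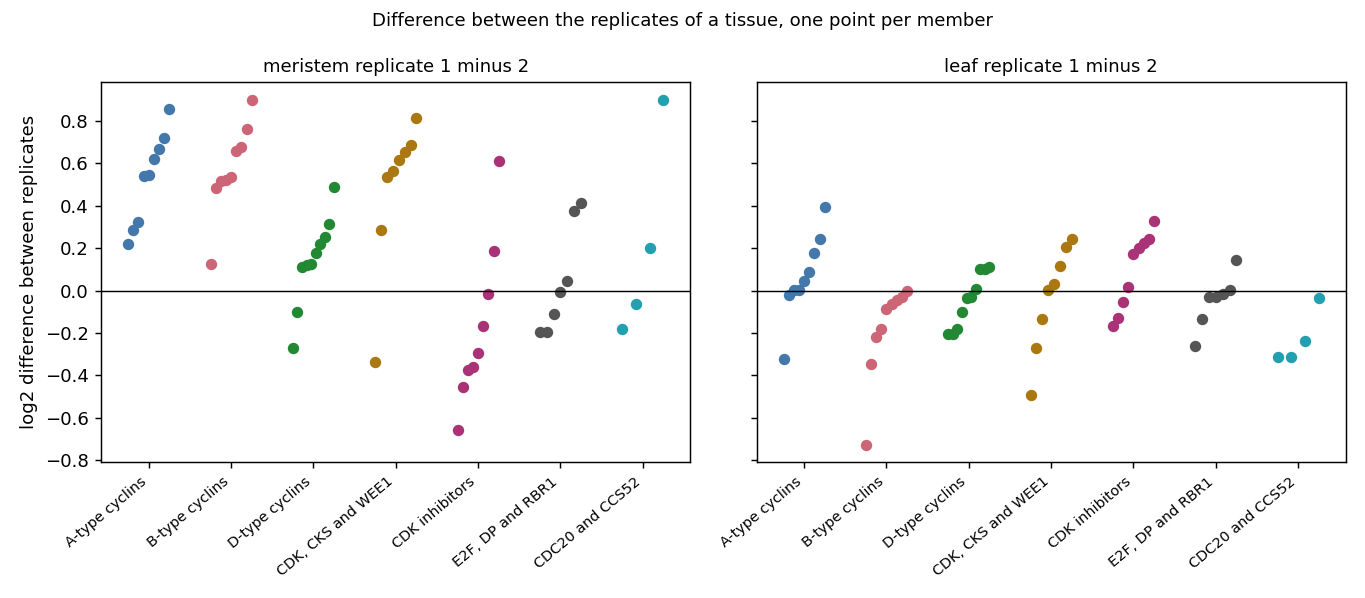
Log2 difference between the replicates of a tissue (y axis, replicate 1 minus replicate 2) for each member, sorted within its class, for the meristem (left) and the leaf (right). A- and B-type cyclins all lie above 0 in the meristem, with class medians of 0.55 and 0.53, and around or below 0 in the leaf, with 0.04 and -0.09.

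Further lists of cell-cycle genes were compared in the same way, where 27.1% of all loci were higher in the meristem and 21.6% lower. Of 13 genes of mitosis and cytokinesis (MYB3R factors, Aurora kinases, spindle checkpoint and phragmoplast proteins), 11 were higher in the meristem and none was lower, with a median of 1.05. All 13 differences were positive. Of 13 genes of the anaphase-promoting complex and its inhibitors, 8 were higher and 1, *APC10* (AT2G18290, named after its value was seen), was lower, with a median of 0.93. *GIG1* (AT3G57860), an inhibitor of the complex, was at 8.79 and 8.45 in the meristem and 6.28 and 6.53 in the leaf. Its difference of 2.22 (SE 0.18, adjusted p = 0.00172, limma) made it the only 4-fold difference of that list.

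Of 6 E2F-target S-phase genes, such as ribonucleotide reductase and replication licensing genes, 1 was higher (16.7%, against 27.1% of all loci). That was the licensing gene *CDT1A* (AT2G31270, named after its value was seen), and the median of the list was 0.37. The difference between this list and the mitotic one was not tested. Of 17 further cyclins, CDKs, SMR inhibitors and E2F-like genes, 9 were higher and 2 lower (52.9% and 11.8%), with a median of 0.65. *SMR5* (AT1G07500), an inhibitor known from the response to oxidative stress and DNA damage, was at 8.82 and 9.61 in the meristem against 7.08 and 7.16 in the leaf. It was higher by 2.09 (SE 0.30, adjusted p = 0.00687, limma), opposite in sign to *SMR1*.

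**Figure D4:**
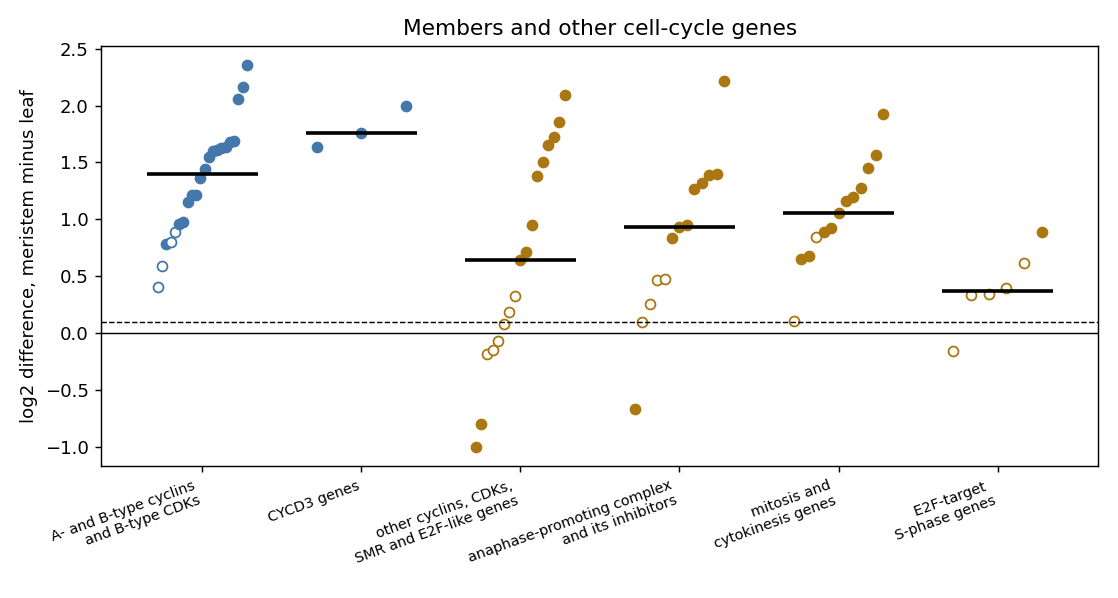
Log2 differences, meristem minus leaf (y axis), of 2 sets of members (blue) and of 4 lists of other cell-cycle genes (brown), one point per gene. Filled points passed the test in limma, black bars are medians and the dashed line is the median of all loci (0.10). The median of the A- and B-type cyclins with the B-type CDKs lies above that of the S-phase genes (0.37). The median of the mitosis and cytokinesis genes (1.05) does so too. Single genes of these sets overlap with the S-phase genes, such as *MYB3R3* and *CYCA3;4*, which lie below *CDT1A*. Of the S-phase genes, 1 of 6 passed the test as higher, where 27.1% of all loci did.

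Marker genes were read on the same arrays. All 4 meristem markers (*STM*, *WUS*, *CLV3*, *KNAT1*) passed the 4-fold threshold towards the meristem, *WUS* being well above background on neither leaf array, and their summed linear signal was 13416 and 17593 against 192 and 205 in the leaf. All 5 leaf markers of photosynthesis were at least 4 times lower in the meristem, but their sum on the meristem arrays, 181821 and 151102, was not near 0 (leaf 1255330 and 1062750). Nearly all of that sum came from *RBCS1A* and *LHCB1.2*, with differences of -2.22 and -2.28, while *RBCS1B* and *LHCB1.4* were at -7.44 and -7.41. *CA1* was well above background on 1 meristem array only. Of 4 floral markers, *LFY*, *AP1* and *PI* were higher in the meristem (sums 848 and 1124 against 97.8 and 87.5). Of 4 trichome markers 2 were higher, of 5 vascular markers 1 was higher and 1 lower, and of 4 markers of leaf primordia 1 was higher. Across all loci 27.1% were higher and 21.6% lower. The vascular shares (20% and 20%) and the higher share of leaf primordium markers (25%) were near these. The part of these cell types in the differences of the cell-cycle genes was not tested.

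B-type cyclins had the highest class median under every setting tried. Relative to the median of all loci, B-type cyclins were at 1.45 and A-type cyclins at 0.86. With normexp correction these medians fell to 0.77 and 0.52, as did that of the CDK class from 1.14 to 0.77, while the inhibitors were at 0.36 and the E2F, DP and RBR1 genes at 0.37. Scaling moved the median of all loci, by -0.30 with scaling to the median, by 0.42 without scaling and by 0.77 with the spike-in controls, and left class medians relative to all loci as they were, since it adds one constant per array. The share of higher among the called members was 89.7%, against 78.8% with scaling to the median and 71.4% with normexp correction. Over all loci the same share was 55.7%, 37.2% and 29.5%.

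**Figure D5:**
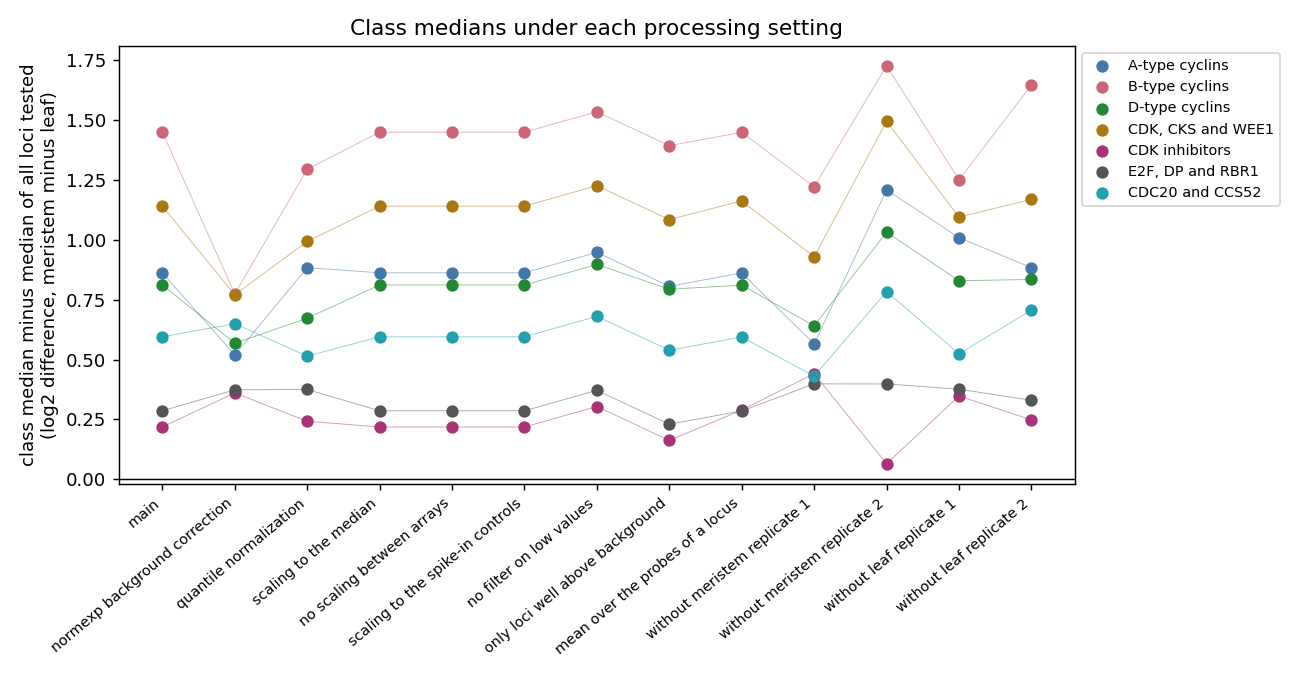
Class median of the log2 difference minus the median of all loci tested (y axis) under each processing setting (x axis), one colour per class. B-type cyclins lie highest throughout, at 1.45 in the main setting and 0.77 with normexp background correction, and every class stays above 0.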

How the data were processed

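A service provider labelled RNA of the 4 samples with Cy3 and hybridised it. The authors deposited Feature Extraction 9.5.3.1 output, namely fluorescence intensity per spot with the background subtracted and dim spots replaced by surrogates (24.0% to 26.2% of the probes per array), not scaled between arrays. The arrays share 1 slide and 1 scan. The number of arrays limits the precision. Processed signals were converted to log2 and aligned between arrays at their 75th percentile. Outlier spots (10 to 12 per array) and 1417 control spots were left out. The brightest probe represented a locus (541 loci have more than 1), and loci whose background-subtracted signal was positive on both replicates of either tissue were tested in R 4.3.3, using limma 3.58.1 and the data.table package (1.17.8). The procedure was tested on simulated data. Each member's probe lists 1 locus. Gene symbols were checked against RefSeq's table for TAIR10.1, where 42 of 56 have the same symbol. The members, lists and tests were chosen with earlier results of these data known. Values on all arrays are given for members that differed at least 4-fold and for the largest and smallest difference of each class, and other members by difference. Probe, promoter and protein sequences were not used here. The alternatives are given in the closing part. Plots used matplotlib 3.10.9 and pandas 2.3.3 under Python 3.11.15.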

Additional observations from a re-analysis of the deposited data

How the results depend on the processing

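Of the 39 members called, 37 kept their direction under every alternative run (14, or 13 for *CYCD7;1*, which was dim on all arrays) and 5 kept their call under all 14 (*CYCD3;1*, *CYCD3;2*, *CYCD3;3*, *KRP1* and *CCS52B*); a further 7 lost it only with normexp background correction. Members higher in the meristem numbered 5 with normexp correction, 13 with the methods' t-test (Benjamini-Hochberg adjusted), and 20 to 38 when each array was left out in turn; those lower numbered 2, 2 and 3 to 4, and 7 with scaling to the median. With scaling to the median 29.7% of all loci were lower as well. At least 4 times higher were 0 members with normexp correction and 2 with scaling to the median. Without scaling they were 13, and with scaling to the spike-in controls (7 probes) 18. Over all loci 252, 1187, 2212 and 3005 were under these settings in turn, and 1524 in the main one. At least 4 times lower were 1, 3, 1 and 0 members. Over all loci 655, 1954, 1031 and 758 were, and 1492 in the main setting. Class medians relative to all loci were 0.52 for A-type cyclins (0.57 to 1.21 when an array was left out), 0.77 for B-type cyclins and 0.77 for the CDK class (0.93 to 1.49) with normexp correction. Signs turned for *CYCA3;1* (-0.00034) and *CYCD1;1* (-0.088) with normexp correction; for *CYCD1;1* (-0.16) and *CCS52A2* (-0.083) with quantile normalization; for *CYCD1;1* (-0.22), *KRP4* (-0.0022), *E2FA* (-0.024) and *CCS52A2* (-0.17) with scaling to the median; for *CYCD2;1* (0.28), *CYCD4;2* (0.073) and *SIM* (0.056) without scaling; and for *CYCD2;1* (0.63), *CYCD4;2* (0.43), *CKS1* (0.052), *SIM* (0.41) and *CCS52A1* (0.21) with the spike-in controls. When arrays were left out in turn, *CYCD1;1* ranged from -0.079 to 0.23, *CYCD2;1* from -0.27 to 0.0015 and *CCS52A2* from -0.029 to 0.29. The cause of these changes was not tested; leaving out an array also leaves fewer degrees of freedom. The arrays share replicate numbers across tissues with nothing in the labels to pair them, and deviations of same-numbered arrays correlated at 0.09 over loci; with a replicate block, 33 members were higher and 4 lower, *CKS1* being called lower. The other counts over all 56 members, higher, lower or 4-fold, stayed within 1.5 times, while counts within a class moved by more, as with the methods' t-test. Loci not well above background are limited by dim signal: with those left out, 38 of 55 members were higher and 3 lower.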
